A study of Homo sapiens with 9 samples.

Results

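Among the microRNA (miRNA) probes of a bead array run on a human ovarian carcinoma cell line and its platinum-resistant derivatives, 50 probes lay on the same side of the parental cells in both resistant lines, 33 raised and 17 lowered. They were selected by their measured intensities out of 705 probes bright enough to be used and 1145 in all. Parental IGROV-1 cells are sensitive to cisplatin and were set against IGROV-1/OHP, which was derived from them by oxaliplatin exposure, and IGROV-1/Pt1, which was derived from them by cisplatin exposure. Each of the 3 lines gave 3 arrays of exponentially growing cells, described in the series design as biological replicates. The labels give no drug dose, no exposure time and no clone, and do not say whether the resistant lines were kept in drug before harvest. Each drug is represented by 1 resistant line, and both were set against the same 3 parental arrays, so a change shared by the resistant lines and a trait of these parental cultures cannot be told apart.

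A miRNA is a short RNA cut from a hairpin precursor and loaded into an Argonaute protein, where the bases near its 5′ end, the seed, pair with messenger RNAs and lower their translation and stability. One miRNA can act on many messages, and miRNAs of a family share a seed. Cisplatin and oxaliplatin both bind DNA as platinum adducts, and cells can withstand them through lower uptake, detoxification by thiols, repair or tolerance of the adducts and weaker death signalling, all of which include messages under miRNA control. The probes carry manufacturer identifiers that no file here translates into miRNA names, and the reference tables hold 0 of the 1145. No miRNA, sequence, seed or genomic position is therefore given, and a check of the cell type by epithelial or other marker miRNAs was not made. Identifiers are printed for the first 2 probes of each direction, and the other probes are called by rank, in order of the distance defined next.

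A probe was raised when its 3 parental arrays all lay below the 6 resistant arrays, and lowered when they all lay above. In addition, the parental mean had to lie at least 0.5 on the log2 scale from the nearer resistant mean, which is called the distance here, and the distance had to exceed the difference between the resistant means. The choice therefore fixes the direction, the separation and the likeness of the resistant lines, and these are given as descriptions without a test. The 3 parental arrays lay below all resistant arrays at 67 of the 705 probes (9.50%) and above them at 43 (6.10%). In the raised direction 26 of the 67 missed the margin, 8 passed it with resistant lines too far apart, and 33 were kept. In the lowered direction 21 of the 43 missed the margin, 5 had resistant lines too far apart, and 17 were kept. The lowered count grew to 27 without IGROV-1/OHP replicate 2 and to 29 without IGROV-1/Pt1 replicate 3. In the same settings the raised count grew to 42 and 48. Leaving out an array also relaxes the separation that the rule asks.

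Intensities were deposited in a normalised form with nearly the same distribution on every array, so a change in total miRNA cannot be seen and every shift is relative to the other probes of the array. The arrays were run on RNA from whole cultures, in which fewer cells of a kind and less RNA per cell cannot be told apart. Over the 705 probes the median shift on the log2 scale was 0.03 for IGROV-1/OHP and -0.02 for IGROV-1/Pt1. Parental replicate 1 stood apart from the other parental arrays at some probes, being at least 2-fold above both of them at 27 of the 705. Of these, 2 were lowered probes and 0 were raised probes.

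The raised probe farthest from the parental cells, as measured, was ILMN_3168804. Its intensity was 52.8, 58.8 and 71.9 on the parental arrays, 1154, 883 and 1253 on the IGROV-1/OHP arrays and 1223, 1072 and 1143 on the IGROV-1/Pt1 arrays. The parental values lay below the filter level of 167, a brightness set at 2 times the commonest intensity and not a detection call, so the probe was without clear signal in parental cells and measured on all 6 resistant arrays. Set against that level, the increase was at least 6.497-fold for IGROV-1/OHP and at least 6.85-fold for IGROV-1/Pt1, with measured log2 shifts of 4.16 and 4.24 (SE 0.17, n = 3 arrays a line). The space between the highest parental and the lowest resistant array was 12.3-fold as measured.

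The second raised probe, ILMN_3168389, was measured in all lines. Its parental arrays read 1362, 1042 and 1032, those of IGROV-1/OHP 14076, 13679 and 14974, and those of IGROV-1/Pt1 14853, 12715 and 11207. The line means were 1145 ± 188 (SD, n = 3), 14243 ± 664 and 12925 ± 1832, with log2 shifts of 3.65 and 3.50 (SE 0.15). The groups were 8.23-fold apart at their nearest arrays, and the ranges of the resistant lines overlapped. It was the only one of the 50 with all arrays at the filter level that lay more than 8-fold from the parental mean in both resistant lines.

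**Figure D1:**
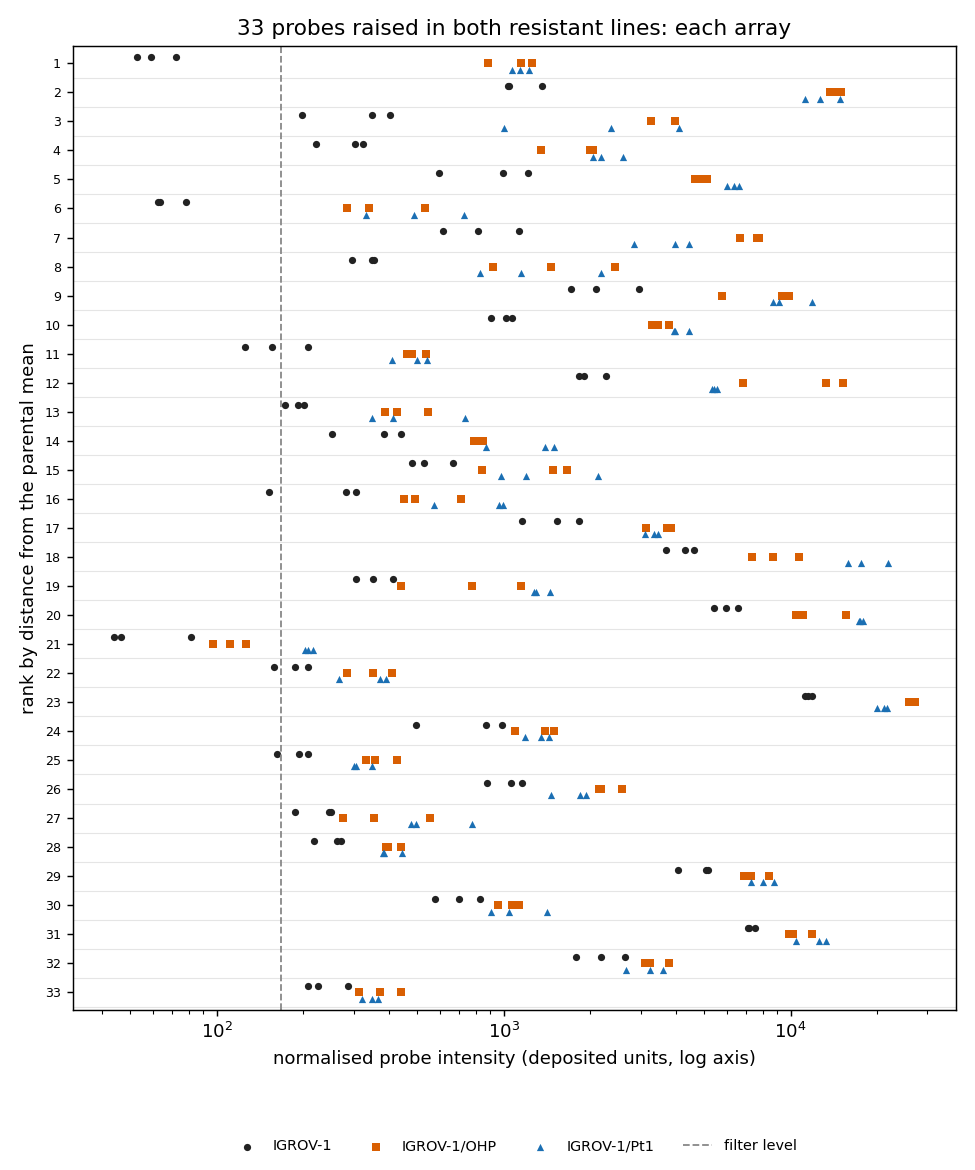
Normalised intensity (log axis) of the 33 raised probes on each of the 9 arrays, ranked from the largest distance to the smallest, with parental cells as circles, IGROV-1/OHP as squares, IGROV-1/Pt1 as triangles and the filter level of 167 as a dashed line. The first rows show wide empty space between parental and resistant arrays, such as 12.3-fold in the first, and the last rows show almost none.

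A further 5 raised probes, of ranks 3 to 7, lay at least 4-fold from the parental mean in both lines as measured. The probe of rank 3 read 401, 199.1 and 347 on the parental arrays and 3255, 3952 and 3952 on those of IGROV-1/OHP. In IGROV-1/Pt1 it read 4075, 2368 and 1007, so 1 array of that line stood well below its fellows while still above every parental array. Without IGROV-1/Pt1 replicate 3 its distance was 3.36 on the log2 scale, against 2.82 with it.

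The probe of rank 4 read 221.9, 304 and 324 in parental cells against 2053, 2001 and 1347 in IGROV-1/OHP and 2178, 2615 and 2053 in IGROV-1/Pt1. That of rank 5 read 993, 594 and 1213 against 4958, 4650 and 5132 and then 6362, 6590 and 6029. For both, the resistant arrays stood together within 2-fold and far from the parental arrays.

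Rank 6 was the other of these probes without clear signal in parental cells, at 78.0, 62.6 and 63.6. It read 339, 284 and 531 in IGROV-1/OHP and 728, 488.9 and 331 in IGROV-1/Pt1, which is at least 2.22-fold and at least 2.94-fold over the filter level. Rank 7 read 614, 1129 and 816 on the parental arrays, 7749, 6682 and 7621 in IGROV-1/OHP and 4422, 3952 and 2846 in IGROV-1/Pt1. It was raised in both, but all IGROV-1/OHP arrays lay above all IGROV-1/Pt1 arrays, and the resistant means lay 1.99-fold apart (SE 0.25 on the log2 scale).

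Between 2-fold and 4-fold lay 14 raised probes, of ranks 8 to 21. The one with the smallest SE was rank 10, at 1072, 906 and 1021 on the parental arrays, 3763, 3298 and 3441 in IGROV-1/OHP and 3952, 3916 and 4436 in IGROV-1/Pt1, with shifts of 1.81 and 2.04 (SE 0.10). Its replicates spread by less than 1.2-fold in every line. The probe of rank 8 varied more within the resistant lines, at 1458, 922 and 2446 in IGROV-1/OHP and 1154, 830 and 2178 in IGROV-1/Pt1, while its parental arrays at 355, 348.5 and 297 were close together. Rank 9 read 2097, 1724 and 2971 on the parental arrays, 9911, 5779 and 9335 in IGROV-1/OHP and 8703, 9082 and 11839.6 in IGROV-1/Pt1, and its resistant ranges overlapped. Rank 11 read 156, 209 and 126, then 536, 481 and 459.9, then 540.0, 407 and 498, so it reached the filter level on 1 parental array and on all resistant arrays.

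Some of these probes held their place in both lines but by unequal amounts. Rank 12 read 1831, 2274 and 1907 on the parental arrays, 13296, 6846 and 15285 in IGROV-1/OHP and 5408, 5556 and 5323 in IGROV-1/Pt1. Rank 18 had the opposite order, at 3680, 4624 and 4296, then 8703, 7366 and 10662, then 15802, 17577 and 21795. The resistant lines did not overlap at either, and the distance of rank 18 (1.08) exceeded the difference between them (1.05) by little. Rank 21 stayed under the filter level on the 3 parental and the 3 IGROV-1/OHP arrays and stood at 204 to 216 in IGROV-1/Pt1. In IGROV-1/OHP it therefore has no measured level, and its place rests on IGROV-1/Pt1, at least 1.25-fold higher.

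The last 12 raised probes had distances under 2-fold. Rank 23 had narrow replicates, at 11516, 11207 and 11888 on the parental arrays, 26821, 27230 and 25763 in IGROV-1/OHP and 21135, 21695 and 19930 in IGROV-1/Pt1. Its shifts were 1.21 and 0.86 (SE 0.07), small next to the first ranks but many times the spread of its arrays. Rank 32 was the reverse, since its highest parental array at 2655 almost met its lowest resistant array at 2679. The 3 raised probes just inside the margin had distances of 0.526, 0.528 and 0.545, and the 3 just outside it 0.498, 0.448 and 0.428.

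The 33 raised probes had a median shift of 1.21 on the log2 scale in IGROV-1/OHP (range 0.54 to 4.16) and 1.56 in IGROV-1/Pt1 (range 0.53 to 4.24), where both upper ends belong to ILMN_3168804 and are bounded only at 2.70 and 2.78. With probes below the filter level in parental cells set at their bounds, the medians were 1.19 and 1.44. Parental cells had 26 of the 33 at the filter level on all 3 arrays, 4 on some of them and 3 on none. In IGROV-1/OHP 32 reached it on all arrays, and in IGROV-1/Pt1 all 33 did.

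The lowered probe farthest from parental cells was ILMN_3168757. It read 703, 584 and 687 on the parental arrays, 148, 95.8 and 128.1 in IGROV-1/OHP and 106.2, 132 and 141.4 in IGROV-1/Pt1. All 6 resistant arrays lay below the filter level, so the probe had clear signal in parental cells alone and was at least 3.93-fold lower in each resistant line. Its measured log2 shifts were -2.43 and -2.39 (SE 0.19), and the nearest arrays of the groups were 3.94-fold apart.

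The second lowered probe, ILMN_3168801, owed most of its distance to 1 array. It read 4650 on parental replicate 1 but 234 and 448 on the other parental arrays, against 197, 232 and 120 in IGROV-1/OHP and 95.4, 104 and 119 in IGROV-1/Pt1. The lowest parental array, at 234, stood just above the highest resistant one, at 232, and no IGROV-1/Pt1 array reached the filter level. The shift was -2.16 (SE 0.98) in IGROV-1/OHP. With all parental arrays counted, the decrease in IGROV-1/Pt1 was at least 4.71-fold against the filter level. That bound leans on the same array, since the parental geometric mean was 787 with it and 324 without it. Without parental replicate 1 the distance fell to 1.84-fold, from 4.46-fold, and the measured log2 shift in IGROV-1/Pt1 went from -2.90 to -1.62.

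**Figure D2:**
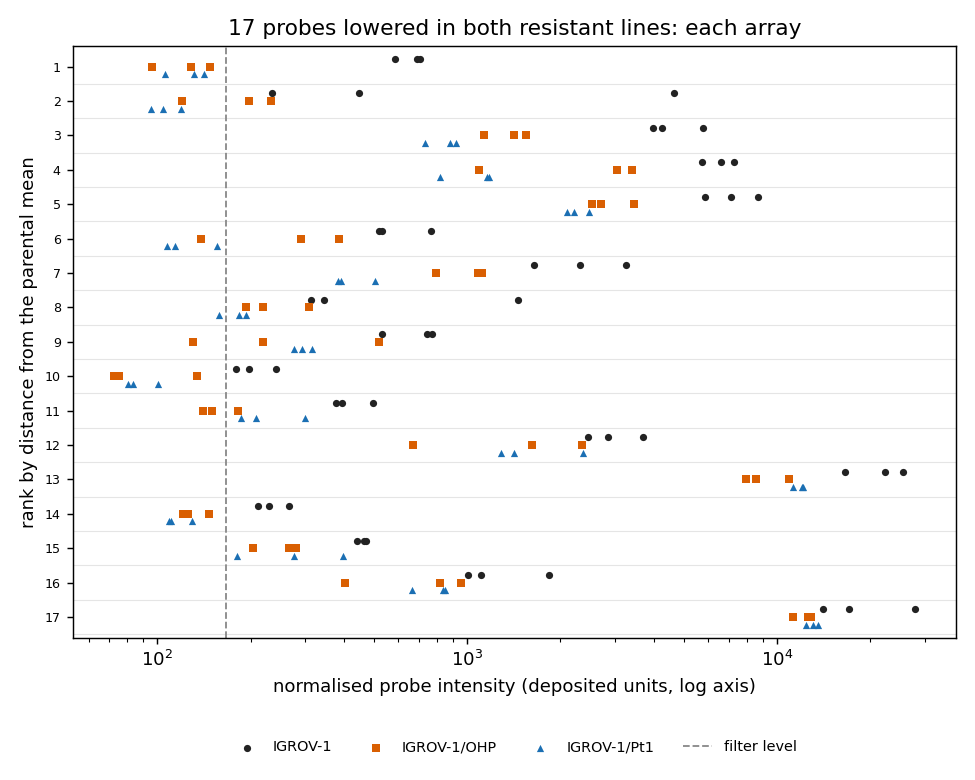
Normalised intensity (log axis) of the 17 lowered probes on each of the 9 arrays, ranked from the largest distance to the smallest, with parental cells as circles, IGROV-1/OHP as squares, IGROV-1/Pt1 as triangles and the filter level of 167 as a dashed line. Ranks 2 and 8 show 1 parental array far to the right of the other parental arrays, at 4650 and 1458.

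The lowered probes of ranks 3, 4, 5 and 7 stood well above the filter level in all lines. Rank 3 read 3974, 4251 and 5779 on the parental arrays, 1551, 1421 and 1129 in IGROV-1/OHP and 922, 878 and 728 in IGROV-1/Pt1. Its shifts were -1.76 and -2.46 (SE 0.19), and the 3 lines formed 3 separate steps with IGROV-1/Pt1 lowest. Rank 5 read 8703, 5866 and 7101, then 2536, 3464 and 2712, then 2476, 2204 and 2097, so its resistant lines lay side by side, without overlap. Ranks 4 and 7 were lower in IGROV-1/Pt1, at means of 1049 ± 202 and 426 ± 67.4, than in IGROV-1/OHP, at 2515 ± 1244 and 999 ± 179 (SD, n = 3). The wide spread of rank 4 in IGROV-1/OHP came from replicate 2, at 1096 against 3038 and 3413, and that array lay within the IGROV-1/Pt1 range.

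Rank 13 read 16595, 22373 and 25597 on the parental arrays, 10919, 7941 and 8560 in IGROV-1/OHP and 11261, 12138 and 12024 in IGROV-1/Pt1. Here IGROV-1/OHP was the lower line, with shifts of -1.23 and -0.84 (SE 0.18). Rank 6 read 531, 520.0 and 763 on the parental arrays, 384.5, 138 and 290.4 in IGROV-1/OHP and 156, 107.5 and 114 in IGROV-1/Pt1, where no array reached the filter level and the decrease was at least 3.56-fold.

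Among the lowered probes of ranks 9 to 12, replicates of IGROV-1/OHP were often far apart. Rank 9 read 741.5, 769 and 531 on the parental arrays but 219, 520.0 and 130.4 in IGROV-1/OHP, whose replicate 2 nearly met the lowest parental array, and 276, 315 and 294 in IGROV-1/Pt1. Rank 12 read 2446, 3680.5 and 2846, then 1624, 667 and 2345, then 1281, 1421 and 2368, again with little space between the groups. Rank 11 was tighter, at 377.1, 498 and 393 on the parental arrays, 150.4, 182.4 and 140.7 in IGROV-1/OHP and 208, 186 and 300.7 in IGROV-1/Pt1, with shifts of -1.42 and -0.89 (SE 0.21). Only 1 of its IGROV-1/OHP arrays reached the filter level, so the shift there runs partly to levels without clear signal. Ranks 10 and 14 stood just over the filter level in parental cells, at 206.3 ± 31.7 and 235 ± 27.4, and below it on every resistant array, so they were at least 1.23-fold and at least 1.40-fold lower.

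The lowered group as a whole was less cleanly separated than the raised one. The nearest parental and resistant arrays were closer than 0.1 on the log2 scale at 6 of the 17 lowered probes, against 2 of the 33 raised ones, and the median space was 0.42 against 0.67. The median shift of the 17 was -1.23 in each resistant line, with measured values of -2.43 to -0.63 for IGROV-1/OHP and -2.90 to -0.54 for IGROV-1/Pt1. Both low ends, at ranks 1 and 2, are shifts to levels under the filter, with bounds of 1.97 and 2.24 on the log2 scale. The bound of 2.24 leans on parental replicate 1. The largest decrease in IGROV-1/Pt1 with all arrays at the filter level was -2.65, at rank 4. With dim probes at their bounds the medians were -1.23 and -1.19. The lowered probes just inside the margin had distances of 0.538, 0.706 and 0.761, and those just outside it 0.465, 0.442 and 0.420.

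The distance of 3 lowered probes, of ranks 2, 8 and 17, leaned on parental replicate 1. Rank 8 read 1458 on that array and 313 and 346 on the other parental arrays, and without it the distance was 0.48 on the log2 scale, under the margin. Rank 17 read 27969 there against 14076 and 17112, and without it the distance was 0.25. When each array was left out in turn with the same 705 probes, 25 of the 33 raised and 10 of the 17 lowered probes met the rule every time. With the filter applied anew to the remaining arrays, 25 and 7 did, since lowered ranks 1, 10 and 14 pass the filter through the parental arrays alone. All of the first 12 raised ranks were among the 25, and 8 of the first 12 lowered ranks were among the 10.

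The rule asks that the resistant lines differ by less than the distance, not that they stand close to each other. The median difference between their means was 0.23 on the log2 scale for the raised and 0.35 for the lowered probes, where it was 0.31 over all 705. Rank 24 of the raised probes had the smallest difference (0.0020), at 1499, 1398 and 1096 in IGROV-1/OHP and 1347, 1439 and 1189 in IGROV-1/Pt1 against 493.3, 869 and 986 in parental cells. Arrays of the resistant lines did not overlap at 11 of the 33 raised and 6 of the 17 lowered probes, against 39.6% of all tested probes.

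Where the resistant means differed by more than 0.5 on the log2 scale, IGROV-1/Pt1 was the line farther from the parental cells at 7 of 10 raised and 5 of 6 lowered probes. Among all tested probes with such a difference this held at 40 of 62 with both resistant means above the parental mean (64.5%) and at 39 of 59 with both below it (66.1%), so it is not read as a trait of the chosen probes. The 95% interval of the difference between the resistant lines lay within 2-fold at 22 of the 33 raised and 7 of the 17 lowered probes. The rule limits this difference and no share over all tested probes is given, so these counts only describe the members. Of the 8 raised probes that missed the rule because the resistant lines were too far apart, all had the larger shift in IGROV-1/Pt1, up to 7.73 against 1.30 in IGROV-1/OHP. Of the 5 such lowered probes, 3 did.

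**Figure D3:**
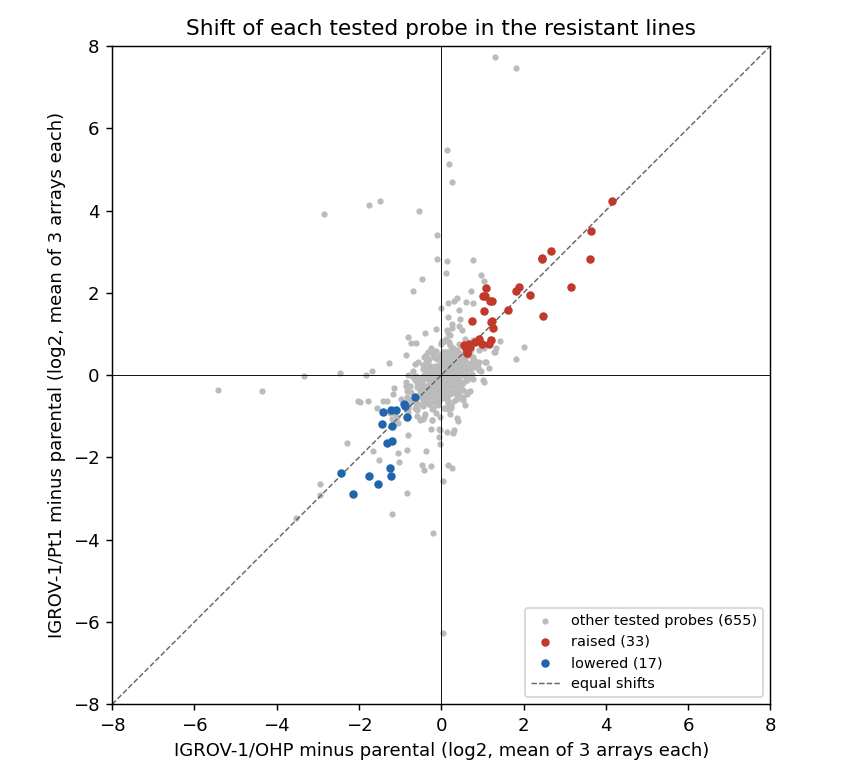
Mean log2 shift from parental cells in IGROV-1/OHP (horizontal) and IGROV-1/Pt1 (vertical) of the 705 tested probes, with the 33 raised in red, the 17 lowered in blue, the rest in grey and the line of equal shifts dashed. Both axes share the parental arrays, and the coloured probes lie along the dashed line because they were chosen for it, out to measured shifts of 4.16 and 4.24 for the first raised probe.

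In the moderated linear model (limma) fitted to all 705 probes, calls were made at an adjusted p below 0.05. In IGROV-1/OHP against parental cells 26 of the 33 raised probes were called higher, where 7.80% of all tested probes were, and 9 of the 17 lowered probes were called lower, where 5.39% were. In IGROV-1/Pt1 against parental cells 29 of the raised probes were called higher (10.8% of all tested) and 10 of the lowered probes were called lower (7.09% of all tested). The rule used these contrasts, so the counts describe the members and support nothing. They show that separation of the arrays did not always bring a call, since 3 raised and 7 lowered probes were called in neither line, the lowered ranks 2 and 8 among them. Both lines were called at 25 raised and 9 lowered probes. Over all tested probes the share called in both lines can be at most that of IGROV-1/OHP alone, 7.80% higher and 5.39% lower. Without parental replicate 1, 2 or 3 the 9 lowered calls of IGROV-1/OHP became 5, 4 and 4, and without parental replicate 2 the 10 of IGROV-1/Pt1 became 6. Lowered ranks 1, 10 and 14, called in both lines with all arrays, fail the filter when a parental array is left out. They were not tested there, so their calls were lost to the filter. Calls over all tested probes, in either direction, fell too. For IGROV-1/OHP they went from 93 of 705 to 64 of 696, 63 of 692 and 62 of 698. For IGROV-1/Pt1 they went from 126 of 705 to 112 of 692 without parental replicate 2. Between the resistant lines 5 raised and 2 lowered probes were called, against 16.6% of all tested probes. The raised count was 1 without IGROV-1/OHP replicate 1 or any IGROV-1/Pt1 array, and 3 without IGROV-1/OHP replicate 3 or parental replicate 3. Raised rank 21, called between the lines with all arrays, fails the filter when an IGROV-1/Pt1 array is left out. The lowered count was 1 without IGROV-1/Pt1 replicate 2 or parental replicate 2. No lowered probe was left without IGROV-1/OHP replicate 1, IGROV-1/Pt1 replicate 1 or IGROV-1/Pt1 replicate 3. Over all tested probes these calls fell too, from 117 of 705 to 87 of 694 when IGROV-1/OHP replicate 1 was dropped. Dropping IGROV-1/Pt1 replicate 1, 2 or 3 left 62 of 691, 60 of 690 and 69 of 690. Dropping IGROV-1/OHP replicate 3 left 88 of 696, and parental replicate 2 or 3 left 95 of 692 and 100 of 698. Dropping IGROV-1/OHP replicate 2 or parental replicate 1 raised them to 127 of 693 and 132 of 696. The falls are not read as a trait of the members.

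Arrays that had no part in the choice were read by leaving out 1 replicate number of every line, choosing probes by the same rule on the other 6 arrays, and then asking where the 3 left-out arrays stood. The filter was then the same level on at least 2 of the 6 arrays, which 717, 708 and 721 probes passed with replicate 1, 2 or 3 left out. With replicate 1 left out, 30 probes were chosen as raised, and the left-out parental array lay below both left-out resistant arrays at 27 of them, against 43.9% of all tested probes. With replicate 2 left out this held at 37 of 46 (29.8% of all), and with replicate 3 left out at 36 of 53 (30.5% of all). The median distance on the left-out arrays was 1.28, 0.66 and 0.34 on the log2 scale, where the choosing arrays gave 1.06, 0.91 and 0.87.

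The lowered direction held less often on left-out arrays. With replicate 1 left out, the parental array lay above both resistant arrays at 17 of the 21 probes chosen as lowered, against 30.8% of all tested probes. With replicate 2 left out it did so at 19 of 35 (34.6% of all), and with replicate 3 left out at 21 of 45 (33.6% of all). The median left-out distance was 0.59, 0.02 and -0.04, so with replicate 2 or 3 left out the resistant array nearer to the parental one was at about its level. The median left-out shifts of IGROV-1/OHP and IGROV-1/Pt1 were -0.64 and -0.93 for replicate 1, -0.13 and -0.74 for replicate 2, and -0.28 and -0.05 for replicate 3. With replicate 2 left out, the shift was therefore still present in the median of IGROV-1/Pt1. These readings have 1 array a line and share the authors' normalisation, and no p was computed from them. Deviations from the line means correlated at 0.33 and 0.43 between the resistant arrays of replicates 2 and 3, and at -0.184 for replicate 1. The left-out arrays of the resistant lines may therefore not be independent readings. The difference between the directions was not tested.

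**Figure D4:**
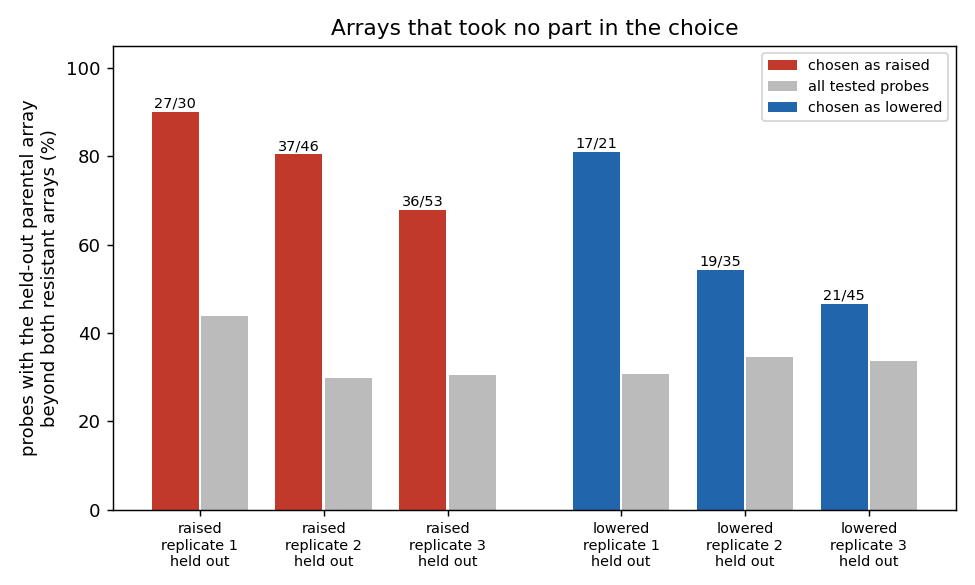
Share of probes (%) whose left-out parental array lay beyond both left-out resistant arrays in the chosen direction, for probes chosen on the other 6 arrays (red for raised, blue for lowered, with counts above the bars) and for all tested probes (grey). The raised bars stand at 27 of 30, 37 of 46 and 36 of 53, and the lowered bars at 17 of 21, 19 of 35 and 21 of 45, each above its grey bar.

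Replicates of the chosen probes were not closer together than those of other probes in most lines. The median SD on the log2 scale among raised probes was 0.23 for parental cells, 0.20 for IGROV-1/OHP and 0.20 for IGROV-1/Pt1, and 0.29, 0.32 and 0.18 for the lowered ones. Over all 705 probes it was 0.22, 0.25 and 0.16. The largest SD among lowered probes was 2.27, in parental cells at ILMN_3168801, and among raised probes 1.02, in IGROV-1/Pt1 at rank 3. Parental replicate 1 was the lowest parental array at 18 of the 33 raised probes, and parental replicate 3 the highest at 18. Replicate 1 lay below its line mean at 23 of the 33 raised and 472 of the 705 tested probes, so its low place was not particular to the raised probes. Its median deviation was small, -0.07 on the log2 scale over all tested probes and -0.12 over the raised ones. Parental replicate 3 lay above the line mean at 69.7% of the raised and 59.6% of the tested probes, with median deviations of 0.14 and 0.03. Among the lowered probes parental replicate 1 was the highest parental array at 6 of 17 and the lowest at 7.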

How the data were processed

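The authors deposited linear probe intensities for 9 one-colour bead arrays, per the table's values, and BeadStudio is named in the submitters' processing notes with no version. Its background and normalization options were not given in the sources used here. Once sorted, the 9 columns never differed by more than 2.67% at a rank, as after quantile normalization, and the intensities were used as deposited, without the neqc step that raw signals would need, on the log2 scale with no pseudocount. Another table with 18 columns of per-array values was not used, because its column names match no sample label. Groups came from sample titles.

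The filter level, 167, is 2 times the mode of all intensities (83.4) and had to be reached on at least 3 arrays. Fits used limma 3.58.1 in R 4.3.3 with 3 group means over 9 arrays (6 residual degrees of freedom), eBayes and Benjamini-Hochberg adjustment over 705 probes. SEs and 95% intervals come from that fit. The fit and the rule were tested on simulated data. "At least" folds compare mean log2 values with the filter level. With 3 arrays a line, their number limits the precision.

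The members and lists were chosen with earlier results of these data known. Lists of miRNA families and cell type markers went unused, because no probe could be given a miRNA name. By the rule for named probes, the 12 farthest in each direction and those at the margin are described, with identifiers for the first 2 of each direction. Ranks beyond 12 in the text were picked after their values were seen. Replicate numbers were not taken as pairs. Deviations from the line means correlated at -0.184, 0.33 and 0.43 between IGROV-1/OHP and IGROV-1/Pt1 arrays of replicates 1, 2 and 3. Between resistant and parental arrays of the same number the correlations lay between -0.272 and 0.121. Whether same-numbered resistant arrays share a batch was not tested. Alternatives covered the filter, margin, scaling, background, variance prior, array weights, arrays in the fit, a replicate block and leaving out each array. Leaving out arrays with the filter unchanged was added after seeing the data.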

Additional observations from a re-analysis of the deposited data

Results flagged for a closer look

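Some probes chosen for a like shift in both resistant lines still differed between those lines by the direct limma comparison of IGROV-1/OHP with IGROV-1/Pt1, which drew attention to them. There were 5 such probes among the 33 raised and 2 among the 17 lowered. Over all 705 tested probes 16.6% were called in that comparison, so neither share is above the background, and the rule itself limits the difference.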

How the results depend on the processing

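The counts of 33 raised and 17 lowered probes became 21 and 10 with a margin of 1, 51 and 29 with no margin, and 9 lowered when the filter level was asked of all 9 arrays. They stayed within 1.5 times with no filter, a doubled level, unlike resistant lines allowed, or another scaling or background. Leaving out 1 array gave 29 to 48 raised and 17 to 29 lowered, the highest without IGROV-1/Pt1 replicate 3 (48 and 29), and 27 lowered without IGROV-1/OHP replicate 2. The median shift of the raised probes for IGROV-1/OHP was 1.08 after cyclic loess and 1.08 to 1.29 without 1 array, and for IGROV-1/Pt1 1.43 to 1.56. For the lowered probes it was -1.64 in IGROV-1/Pt1 with the mode subtracted and an offset of 50, -1.36 to -1.11 there without 1 array and -1.36 to -1.14 in IGROV-1/OHP. Lowered probes called by limma without 1 array numbered 4 to 9 for IGROV-1/OHP and 6 to 11 for IGROV-1/Pt1, and raised ones 18 to 25 and 26 to 30. Calls over all tested probes, in either direction, then ranged from 60 to 101 for IGROV-1/OHP and from 92 to 149 for IGROV-1/Pt1. Lowered ranks 1, 10 and 14 fail the filter without a parental array, and raised rank 21 without an IGROV-1/Pt1 array. Their calls are therefore lost in those settings. Between the resistant lines the 5 raised and 2 lowered calls became 3 and 1 with no filter, 9 and 4 with array weights, and 1 and 1 with the replicate block, and the lowered count was 1 after cyclic loess and with the trend and robust prior. Without 1 array they were 1 to 6 and 0 to 3. Under the replicate block the raised calls against parental cells were 24 for IGROV-1/OHP and 30 for IGROV-1/Pt1, and the lowered calls 7 and 9. Calls over all tested probes were then 67 and 118. The labels do not say whether same-numbered arrays were handled together. The causes were not tested. Shifts of dim probes are bounded by the filter level, below which the arrays give no clear signal.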

Other observations

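Other probes met the margin and the likeness of the resistant lines but failed the separation of the arrays. In the raised direction there were 10, and 0 of them had a distance of 1 or more on the log2 scale. In the lowered direction there were 30, and 10 had such a distance. At 8 of these 10, parental replicate 1 was at least 2-fold above both other parental arrays. The farthest read 13679, 174 and 3129 on the parental arrays, 239, 147 and 137 in IGROV-1/OHP and 129, 264 and 157 in IGROV-1/Pt1. The next read 22007, 299.4 and 9550 on the parental arrays and between 212 and 1007 on the 6 resistant arrays. Parental replicate 2 therefore stood within the resistant range at both, while the other parental arrays stood far above it.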
